A study of Mus musculus with 9 samples.

Results

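The mRNAs described here encode 39 proteins of class switch recombination and DNA repair, taken by gene symbol out of 27179 gene identifiers in the deposited count table. All 39 matched 1 row each, and all 39 were among the 13129 genes with enough reads to test. Class switch recombination exchanges the constant region of an antibody heavy chain. In activated B cells a cytidine deaminase turns cytosines of the switch regions into uracils, base excision and mismatch repair proteins turn the uracils into breaks, and end joining proteins ligate a distant pair of broken ends. Break-sensing kinases, chromatin ubiquitin ligases and end-protection factors steer the ends toward joining, whereas homologous repair proteins act on replicated templates and checkpoint proteins arrest the cell cycle. UPF1 is an RNA helicase of nonsense-mediated mRNA decay (NMD), which degrades mRNAs whose ribosomes terminate in an unfavourable context, and phosphorylated UPF1 (p-UPF1) gathers on mRNAs where decay factors are being recruited.

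RNA immunoprecipitation sequencing (RIP-seq) was carried out on B cells of wild type mouse spleen, purified as CD43- cells. All 9 libraries came from cells cultured for 72 h with, as the labels name them, CD40L at 5 ug/mL, anti-IgM antibody at 10 ug/mL and IL-4 at 20 ng/mL. The methods of the study give an anti-CD40 antibody in place of CD40L. The groups were 3 libraries of the lysate (input), 3 of RNA precipitated with normal rabbit IgG and 3 of RNA precipitated with an anti-p-UPF1 antibody, distinguished below by the letters A to C of the count columns. The labels give neither the age of the mice nor whether the libraries of a group came from different animals. The methods give adult, age-matched mice of both sexes for the study in general and call the data points of its graphs biological replicates. For RIP-seq they describe a small part of the lysate kept as input and the rest incubated with the anti-p-UPF1 antibody or IgG. They do not say how many animals or lysates the RIP-seq replicates came from. The P values below measure the spread between these libraries, part of which may be technical.

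The libraries held 17372510 to 24945286 counts each, fewest in the IgG precipitates. Values are given as CPM, the count of an mRNA relative to a fixed total, after TMM scaling, which assumes that most mRNAs do not differ between libraries, so a log2 fold change of 0 stands for the typical mRNA and not for an unchanged molecule number. The summed CPM of 6 B cell markers was 3119 to 3183 in input, 2636 to 2799 with IgG and 2275 to 2365 with p-UPF1. T cell markers summed to at most 1.51 CPM and NK cell markers to at most 0.787 CPM, and both globin genes counted were at 0 in every library. Markers of plasma cells, 3 genes that activated B cells can also express, summed to 21.5 to 24.9 CPM in input, 25.8 to 29.9 CPM with IgG and 18.0 to 19.1 CPM with p-UPF1. Of 5 myeloid markers, Adgre1 stood at 53.7 to 137 CPM, with its highest values in input, while Lyz2, Csf1r, Itgam and Cd14 stayed at or below 0.430 CPM. The part of any residual cell type in the results was not tested. In such bulk RNA, fewer cells with an mRNA and less of it per cell cannot be told apart.

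To find which repair mRNAs came down with p-UPF1, each was compared with 2 backgrounds, the IgG precipitate and the input. Rad9a, which encodes a subunit of the 9-1-1 checkpoint clamp, was the only member called p-UPF1-bound, a call that asks for a log2 fold change reaching 1 over IgG and 2 over input with both adjusted P values under 0.05. Over all genes tested, 6.25% met that criterion. Rad9a met it under all 22 alternative settings tried. The remaining mRNAs ranged from Dclre1c, at 2.83 times its IgG level, down to Apex1, at 0.241 times. All P values below are two-sided and come from the quasi-likelihood test of edgeR, adjusted by the Benjamini-Hochberg method over the 13129 genes.

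Against IgG, 15 members were higher in p-UPF1, where 40.4% of all genes were higher, and 18 were lower, where 42.2% of all genes were lower. Past a log2 fold change of 1, 5 members were higher (Rad9a, Dclre1c, Ung, Mre11a and Rnf168) against 22.2% of all genes. At -1 or less, 3 were lower (Apex1, Polb and Msh6) against 21.9% of all genes. The share of members past this fold, 12.8% higher and 7.69% lower, was below that of the whole table in both directions. With upper-quartile factors or library size alone, 2 members were higher and 6 lower past it. Without IgG library A the number higher fell from 5 to 3, since Mre11a moved to 0.98 and Rnf168 to 0.93 on the log2 scale.

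Against input, 22 members were higher in p-UPF1, where 40.8% of all genes were higher, and 15 were lower, where 42.6% of all genes were lower. Only Rad9a reached a log2 fold change of 2 over input, which 6.31% of all genes reached, and only Apex1 reached -2, which 9.67% of all genes reached. The median log2 fold change over the members was -0.07 over IgG and 0.18 over input, beside -0.03 and -0.03 over all genes tested. For 15 members the lowest p-UPF1 library lay above the highest of the 6 others, as for 37.0% of all genes. For 14 members the highest p-UPF1 library lay below the lowest of the others, as for 37.6% of all genes. The 2 comparisons share the p-UPF1 libraries, so the values over IgG and over input are not separate evidence.

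**Figure D1:**
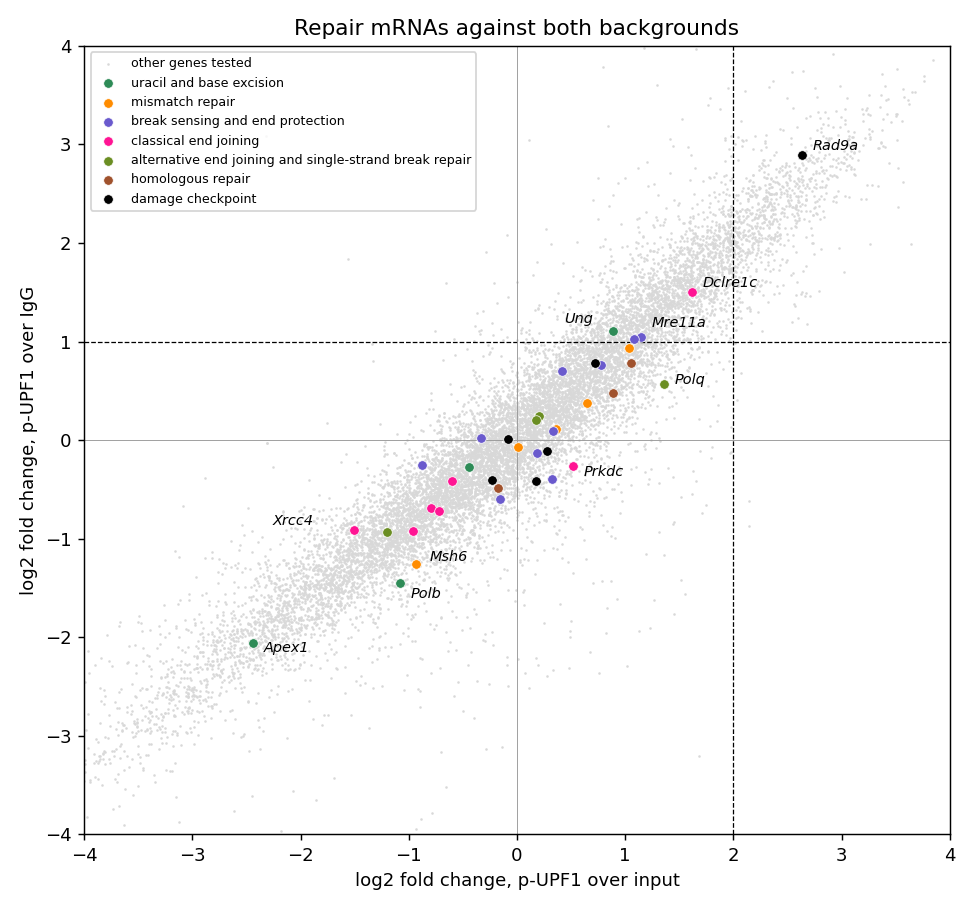
Log2 fold change of p-UPF1 over IgG (vertical) against that over input (horizontal) for the 39 repair mRNAs, coloured by role, and for all other genes tested within 4 log2 units (grey). Dashed lines mark the criterion of 1 over IgG and 2 over input, and Rad9a, at 2.89 and 2.63, is the only coloured point beyond both.

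Among the roles, the checkpoint mRNAs held the widest range of log2 fold changes over IgG, from -0.42 to 2.89. Uracil and base excision mRNAs came next, from -2.06 to 1.11. The upper end of the checkpoint range was Rad9a, with Hus1 next at 0.78. The 9-1-1 clamp is a ring of RAD9A, HUS1 and RAD1 that is loaded at damaged DNA and activates the ATR kinase, and its 3 subunits are needed in a common complex. NMD acts where a ribosome ends translation, so the bases around the stop codon of these 3 mRNAs and of the mRNAs at either end of the remaining range are shown first. Each run holds 27 bases of the RefSeq mRNA on GRCm38.p6, read 5′ to 3′ on the strand of the gene, with the stop codon in capitals.
Rad9a: gatggtgaagggTGAatttgagaaatt
Hus1: ccagccttgtccTAGcaccgtctcagc
Rad1: gttcctgagtctTGAataattcactga
Dclre1c: cttttagatagtTAAcaaataaaactc
Apex1: tacctagcactgTGAtaccctcctgca
The mRNA with the highest log2 fold change over IgG (Rad9a) and the one with the lowest (Apex1) both end in TGA. Of the 39 members, 16 end in TGA, 15 in TAA and 8 in TAG.

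Rad9a, at chr19:4195196-4201672 on the minus strand (GRCm38), stood at 34.8, 34.5 and 34.0 CPM in input A to C. Its IgG libraries held 31.9, 25.6 and 28.5 CPM, and its p-UPF1 libraries 208, 216 and 216 CPM. The p-UPF1 libraries were thus far above all 6 others, and the IgG libraries lay below the input. On the log2 scale Rad9a was 2.89 above IgG (SE 0.06, adjusted P = 1.58e-16). It was 2.63 above input (SE 0.06, adjusted P = 2.67e-16). These values lie at the 98.6th and 98.0th percentiles of all genes tested.

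Hus1, at chr11:8993137-9011236 on the minus strand, stood at 27.1, 27.8 and 29.3 CPM in input, 25.6, 27.3 and 28.2 CPM with IgG, and 46.8, 47.6 and 44.6 CPM with p-UPF1. It was higher in every p-UPF1 library, by 0.78 over IgG on the log2 scale (SE 0.06, adjusted P = 3.71e-09) and 0.72 relative to input. Rad1, at chr15:10486018-10499063 on the plus strand, ran the other way. It held 18.5, 19.5 and 19.5 CPM in input, 24.5, 20.6 and 20.0 CPM with IgG, and 16.9, 15.3 and 16.8 CPM with p-UPF1. Every p-UPF1 library of Rad1 was below the others, with a log2 fold change of -0.41 over IgG (SE 0.09, adjusted P = 4.34e-04) and -0.23 relative to input. The call over input held in 14 of 21 alternatives, and was lost among others without input library B or C or p-UPF1 library B.

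A ratio of counts within a library does not depend on scaling. The ratio of Rad9a to Rad1 counts was 1.75 to 1.88 in input and 1.25 to 1.43 with IgG, and rose to 12.3 to 14.1 with p-UPF1. Rad9a to Hus1 moved from 1.16 to 1.28 in input and 0.940 to 1.25 with IgG to 4.45 to 4.85 with p-UPF1. The mRNAs of the clamp subunits were thus present in the p-UPF1 precipitate in other proportions than in the lysate, and the ranges did not overlap. With 3 libraries against 3, an exact permutation test cannot give a two-sided P below 0.1, so such ratios are given as descriptions.

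The other checkpoint members are kinases. Atr, the kinase that the clamp activates, had 89.7 to 93.2 CPM in input, 131 to 149 CPM with IgG and 100 to 109 CPM with p-UPF1. It was lower than IgG by a log2 fold change of -0.42 (adjusted P = 1.18e-06) and higher than input by 0.18 (adjusted P = 4.95e-03). Chek1, the effector kinase of ATR, stood at 42.1 to 45.1, 38.0 to 42.5 and 40.2 to 41.9 CPM in input, IgG and p-UPF1 libraries, and passed no test. Chek2, the effector kinase of ATM, was higher in p-UPF1 than in input by 0.28 (adjusted P = 1.02e-02), and its value over IgG was -0.11 (adjusted P = 0.255).

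**Figure D2:**
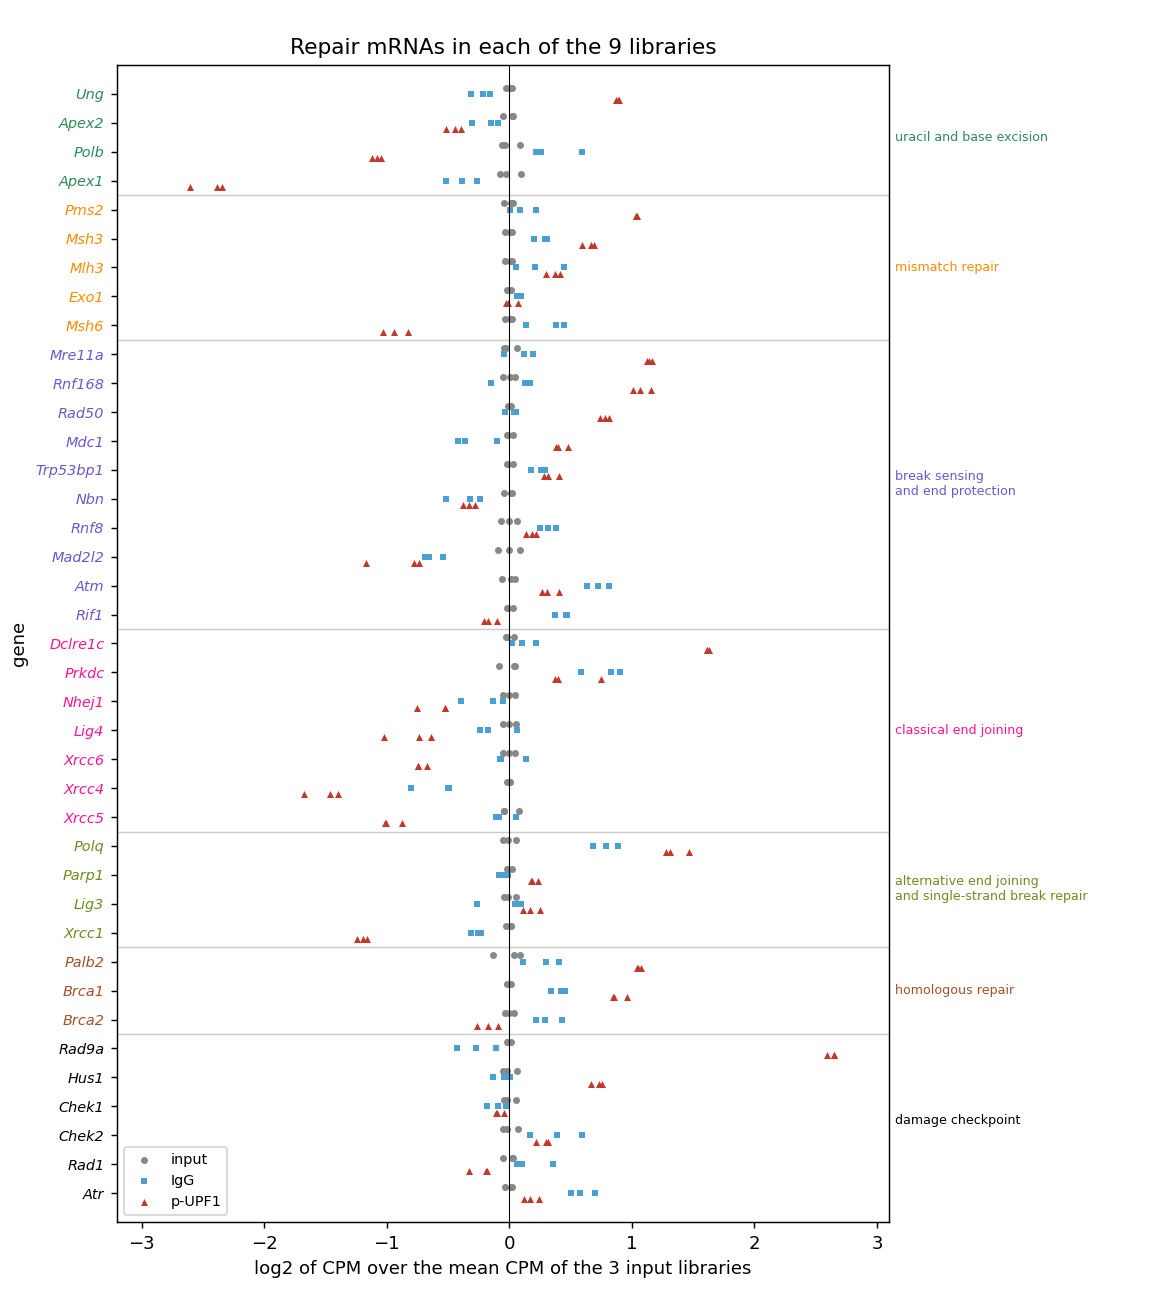
Each point is 1 library of input (grey), IgG (blue) or p-UPF1 (red), placed at the log2 of its CPM over the mean CPM of the 3 input libraries, for the 39 repair mRNAs grouped by role and ordered within a role by log2 fold change over IgG. Rad9a stands farthest right with all p-UPF1 libraries, and Apex1 farthest left.

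Of the 4 mRNAs for uracil and base excision, Ung was higher than IgG (40.4% of all genes) and Apex1, Polb and Apex2 were lower (42.2% of all genes). UNG, a uracil DNA glycosylase, removes the uracil that the deaminase leaves. Ung held 66.8, 64.4 and 65.7 CPM in input, 53.0, 59.0 and 56.5 CPM with IgG, and 122, 121 and 119.7 CPM with p-UPF1. It was higher in all 3 p-UPF1 libraries, by 1.11 on the log2 scale relative to IgG (SE 0.05, adjusted P = 1.19e-12). Relative to input the rise was 0.88 (SE 0.05, adjusted P = 1.66e-11). APEX1 is the main endonuclease that cuts the abasic site which UNG makes. Apex1, at chr14:50924949-50927188 on the plus strand, held 41.4, 45.1 and 40.0 CPM in input, 32.2, 35.2 and 29.4 CPM with IgG, and 6.95, 8.08 and 8.29 CPM with p-UPF1. It had the lowest value of all members, a log2 fold change of -2.06 over IgG (SE 0.09, adjusted P = 2.54e-12). Relative to input it was -2.44 (SE 0.09, adjusted P = 1.58e-13).

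Within the libraries, the ratio of Ung to Apex1 counts went from 1.43 to 1.64 in input and 1.65 to 1.92 with IgG to 14.4 to 17.6 with p-UPF1. Polb, the gap-filling polymerase of base excision repair, held 36.4 to 40.2 CPM in input, 44.1 to 57.3 CPM with IgG and 17.5 to 18.3 CPM with p-UPF1. Its log2 fold change was -1.45 over IgG (adjusted P = 1.88e-10) and -1.08 relative to input. Apex2, a second abasic-site endonuclease, was at -0.27 over IgG and at -0.45 over input (adjusted P = 6.42e-04). Its call over IgG held in 14 of 21 alternatives, and was lost among others without IgG library B or C or p-UPF1 library B or C.

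Of the 5 mismatch repair mRNAs, 2 were higher than IgG (40.4% of all genes), 1 was lower (42.2% of all genes) and 2 did not pass. MSH6 and MSH3 are alternative partners in the complexes that recognise mismatches, PMS2 is the nuclease subunit of a downstream complex that also has MLH3 as an alternative partner, and EXO1 resects the cut strand. Msh6 held 134, 139 and 138 CPM in input, 151, 187 and 179 CPM with IgG, and 67.4, 71.5 and 77.5 CPM with p-UPF1. All p-UPF1 libraries of Msh6 were below the rest, with -1.26 over IgG (SE 0.07, adjusted P = 3.54e-11) and -0.93 relative to input. Pms2 went the other way, from 33.9 to 35.8 CPM in input and 35.1 to 40.8 CPM with IgG to 71.8 to 72.3 CPM with p-UPF1, or 0.93 over IgG (SE 0.06, adjusted P = 1.36e-10) and 1.04 relative to input. The ratio of Pms2 to Msh6 counts was 0.199 to 0.263 in the 6 background libraries and 0.934 to 1.06 with p-UPF1.

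Msh3 rose modestly, by 0.38 over IgG (adjusted P = 1.66e-05) and 0.65 relative to input, with 38.3 to 40.8 CPM with p-UPF1 against 24.7 to 31.4 CPM in the others. Mlh3 was higher than input by 0.36 (adjusted P = 7.00e-04), while its value over IgG, 0.12, did not pass (adjusted P = 0.197). Exo1 lay between 42.3 and 46.1 CPM in all 9 libraries and passed no test in any comparison.

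Of the 10 mRNAs for break sensing and end protection, 4 were higher than IgG (Mre11a, Rnf168, Rad50 and Mdc1), 4 were lower (Rif1, Atm, Mad2l2 and Rnf8) and 2 did not pass (Nbn and Trp53bp1). These counts lie near the 40.4% higher and 42.2% lower of all genes, and the calls of Mad2l2 and Rnf8 were lost in 12 and 14 of 21 alternatives. MRE11, RAD50 and NBN form the complex that binds broken ends and recruits the ATM kinase. Mre11a held 78.0, 77.0 and 82.7 CPM in input, 77.1, 86.2 and 90.6 CPM with IgG, and 175, 172 and 178 CPM with p-UPF1, a log2 fold change of 1.05 over IgG (SE 0.05, adjusted P = 1.35e-11) and 1.14 relative to input. Rad50 rose from 119 to 122 CPM in input and 118 to 125 CPM with IgG to 201 to 212 CPM with p-UPF1, or 0.76 over IgG (SE 0.04, adjusted P = 2.73e-11). Nbn did not follow its partners. It held 63.3 to 66.1 CPM in input, 45.6 to 55.3 CPM with IgG and 50.0 to 53.5 CPM with p-UPF1, so its p-UPF1 and IgG values overlapped (0.02, adjusted P = 0.766) and both lay below input. The ratio of Mre11a to Nbn counts was 1.17 to 1.31 in input, 1.64 to 1.69 with IgG and 3.22 to 3.49 with p-UPF1.

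RNF8 and RNF168 are the ubiquitin ligases that act in succession on chromatin beside a break, and MDC1 is the adaptor that brings RNF8 there. Rnf168 held 55.6, 59.6 and 58.0 CPM in input, 52.2, 63.3 and 64.8 CPM with IgG, and 121, 117 and 129 CPM with p-UPF1. It was higher in all p-UPF1 libraries, by 1.02 over IgG (SE 0.07, adjusted P = 4.42e-10) and 1.08 relative to input. Mdc1 had 90.5 to 97.0 CPM with p-UPF1 against 52.1 to 70.9 CPM in the others, 0.70 over IgG (adjusted P = 4.85e-08) and 0.42 relative to input. Rnf8 was at 31.4 to 34.5 CPM in input, 39.3 to 43.0 CPM with IgG and 36.3 to 38.4 CPM with p-UPF1. Its value of -0.13 over IgG (adjusted P = 4.70e-02) lost its call when any library but IgG library B was left out. In the RefSeq annotation 78.4% of the exonic bases of Rnf8 are shared with Gm28043 on the same strand, so its count is uncertain, and Gm28043 was not among the genes tested.

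53BP1 (Trp53bp1), RIF1 and REV7 (Mad2l2) hold back resection of broken ends. Rif1 held 115 to 125 CPM with p-UPF1 against 132 to 136 CPM in input and 173 to 185 CPM with IgG, with -0.60 over IgG (adjusted P = 1.57e-09) and -0.16 relative to input. Mad2l2 had 21.9 to 24.9 CPM in input, 14.5 to 16.1 CPM with IgG and 10.4 to 14.1 CPM with p-UPF1. Most of its difference from input, -0.88 on the log2 scale, was therefore already present in the IgG precipitate (-0.63), and its call over IgG (-0.25, adjusted P = 4.19e-02) was lost without any 1 input library, without IgG library B or C and without p-UPF1 library C. Trp53bp1 was at 111 to 121 CPM with p-UPF1, 103 to 112 CPM with IgG and 90.1 to 92.8 CPM in input, higher than input by 0.34 and at 0.09 over IgG (adjusted P = 8.54e-02). It stayed without a call over IgG in 16 of 21 alternatives, and gained one among others without IgG library A or p-UPF1 library B.

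Of the 7 mRNAs of classical end joining, 6 were lower than IgG, where 42.2% of all genes were lower, and Dclre1c was higher. The calls of Xrcc4, Xrcc5, Xrcc6 and Lig4 held in all 21 alternatives, whereas those of Nhej1 and Prkdc were lost in some of them. The heterodimer of Ku70 (Xrcc6) and Ku80 (Xrcc5) caps the ends, and XRCC4, XLF (Nhej1) and ligase IV (Lig4) join them. Xrcc5 held 79.1, 85.7 and 79.0 CPM in input, 75.6, 76.9 and 84.3 CPM with IgG, and 40.4, 44.4 and 40.5 CPM with p-UPF1. Xrcc6 held 48.4 to 52.0 CPM in input, 47.7 to 55.2 CPM with IgG and 29.9 to 31.5 CPM with p-UPF1. Both Ku mRNAs were lower in every p-UPF1 library, Xrcc5 by -0.92 (SE 0.06, adjusted P = 2.97e-10) and Xrcc6 by -0.72 (SE 0.07, adjusted P = 2.38e-08) over IgG. Their count ratio was 1.57 to 1.65 in input, 1.39 to 1.77 with IgG and 1.34 to 1.41 with p-UPF1, so the p-UPF1 range lay below that of input and overlapped that of IgG.

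Xrcc4 fell from 10.5 to 10.7 CPM in input and 6.07 to 7.54 CPM with IgG to 3.33 to 4.02 CPM with p-UPF1, -0.91 over IgG (adjusted P = 1.01e-05) and -1.51 relative to input. Lig4 had 6.07 to 7.90 CPM with p-UPF1 against 10.5 to 12.9 CPM in the others, -0.68 over IgG (adjusted P = 6.16e-05). Nhej1 was the least abundant member by CPM, at 2.36 to 4.10 CPM over all libraries. Its value of -0.41 over IgG (SE 0.18, adjusted P = 4.06e-02) was lost in 13 of 21 alternatives, including those that left out any library but IgG library C. Over input Nhej1 was at -0.60 (adjusted P = 4.25e-03).

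DCLRE1C (Artemis) is the nuclease that opens and trims ends in the same pathway, and PRKDC is the catalytic subunit of the kinase that activates it. Dclre1c, at chr2:3424061-3474211 on the plus strand, held 46.2, 44.0 and 44.3 CPM in input, 48.1, 45.6 and 52.2 CPM with IgG, and 137, 137 and 139 CPM with p-UPF1. Its log2 fold change of 1.50 over IgG (SE 0.05, adjusted P = 5.92e-14) stood beside 1.62 for p-UPF1 over input (SE 0.05, adjusted P = 1.84e-14), and it ranked after Rad9a among the members, below the criterion of 2 over input. Prkdc held 70.4 to 77.2 CPM in input, 112 to 140 CPM with IgG and 96.8 to 126 CPM with p-UPF1. It was higher than input by 0.52 (adjusted P = 7.65e-05), and its value of -0.26 over IgG (adjusted P = 1.35e-02) lost its call without IgG library B or p-UPF1 library A or B. The ratio of Dclre1c to Prkdc counts was 0.326 to 0.656 in the background libraries and 1.11 to 1.42 with p-UPF1.

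**Figure D3:**
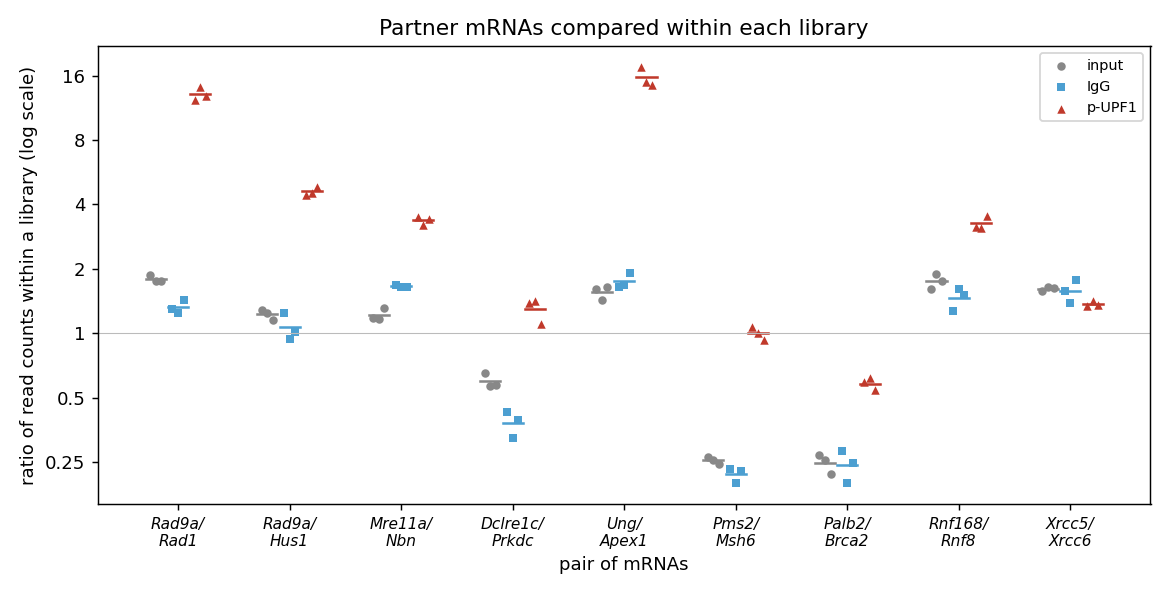
Ratio of the read counts of 2 partner mRNAs within each library, on a log scale and not corrected for length, with a point per library of p-UPF1 (red), input (grey) or IgG (blue) and a bar at the group mean, for pairs chosen and ordered with the values known. Rad9a to Rad1 stands at 12.3 to 14.1 with p-UPF1, and Xrcc5 to Xrcc6 lies between 1.34 and 1.77 in all libraries.

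Alternative end joining and single-strand break repair held the most abundant member per length. PARP1, which senses nicks and breaks and recruits XRCC1 with ligase III, had 150 CPM per kilobase of mRNA in input (SD 2.40, n = 3), the highest level of the 39. Ung came next at 33.9 (SD 0.613, n = 3) and Apex1, Msh6, Xrcc5 and Polb followed between 30.9 and 32.3, each within the summed SDs of the gene just before it in that order. Lig4 was lowest at 3.03 CPM per kilobase (SD 0.118, n = 3). Parp1 held 543 to 559 CPM in input, 517 to 546 CPM with IgG and 621 to 645 CPM with p-UPF1, a small rise of 0.25 over IgG (SE 0.04, adjusted P = 1.05e-05). Over the 21 alternatives this rise kept its call but lay between 0.08 and 0.29. Library size alone moved all genes by a median of -0.16 in the same comparison.

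Xrcc1, the scaffold that PARP1 recruits, fell from 66.5 to 68.3 CPM in input and 54.4 to 57.6 CPM with IgG to 28.6 to 30.2 CPM with p-UPF1, -0.93 over IgG (SE 0.05, adjusted P = 3.72e-11) and -1.20 relative to input. Lig3, its ligase partner, was at 0.21 over IgG (adjusted P = 1.72e-02) and 0.18 relative to input (adjusted P = 3.54e-02). The first of these calls held in 16 of 21 alternatives, and was lost among others without IgG library A or p-UPF1 library C. The second held in 14, and was lost among others without any 1 input library or without p-UPF1 library B or C. Polq, the polymerase that anneals short homologies, held 99.7 to 107 CPM in input, 166 to 191 CPM with IgG and 251 to 285 CPM with p-UPF1. Its log2 fold change of 1.36 over input was thus divided between 0.79 for IgG over input and 0.57 for p-UPF1 over IgG (SE 0.06, adjusted P = 1.01e-07).

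The homologous repair mRNAs code for BRCA1, BRCA2 and PALB2, which links the other two. Palb2 held 14.1 to 16.4 CPM in input, 16.7 to 20.5 CPM with IgG and 31.8 to 32.6 CPM with p-UPF1, 0.78 over IgG (SE 0.08, adjusted P = 1.59e-07) and 1.05 relative to input. Brca1 rose to 132 to 143 CPM from 72.4 to 74.0 CPM in input and 92.8 to 101 CPM with IgG, 0.48 over IgG (SE 0.05, adjusted P = 6.09e-08). Brca2 lay lower, at 51.9 to 58.7 CPM with p-UPF1 against 61.0 to 64.1 CPM in input and 72.4 to 83.9 CPM with IgG, -0.49 over IgG (SE 0.06, adjusted P = 1.18e-06). Its value of -0.17 over input kept its call in 15 of 21 alternatives, and lost it among others without p-UPF1 library A or B. The ratio of Palb2 to Brca2 counts was 0.199 to 0.282 in the background libraries and 0.543 to 0.616 with p-UPF1.

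The IgG precipitate itself was not a copy of the lysate. In IgG over input, 15 members were higher, where 18.2% of all genes were higher, and 8 were lower, where 34.7% of all genes were lower. With library size alone, 22 members were higher and 6 lower, and over all genes the share of calls that were higher moved from 34.4% to 52.6%. The largest rises were in Polq (0.79, SE 0.06, adjusted P = 2.66e-08), Prkdc (0.78, SE 0.09, adjusted P = 3.50e-06), Atm (0.73, SE 0.05, adjusted P = 1.70e-08) and Atr (0.60, SE 0.05, adjusted P = 1.30e-07). These are among the longest coding sequences of the list, and all 6 members with a coding sequence of at least 7000 nt (also Rif1 and Brca2) were higher in IgG than in input, as were 45.2% of the coding genes tested with so long a sequence. That minimum was set with the values known, below the 7281 nt of Rif1.

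Atm, the kinase that signals from broken ends, held 111, 117 and 119 CPM in input, 180, 191 and 204 CPM with IgG, and 139, 144 and 153 CPM with p-UPF1, so the 3 groups did not overlap and IgG was highest. The log2 fold change of p-UPF1 was -0.40 against IgG (SE 0.05, adjusted P = 2.08e-06). Against input it was 0.33 (SE 0.05, adjusted P = 2.25e-05). Besides Atm, Atr, Prkdc and Rnf8 were called lower than IgG and higher than input, 4 of 39 members where 1.10% of all genes were. Without p-UPF1 library A or B only Atm and Atr met both calls. Over the 21 alternatives Atm met them in 21, Atr in 20 (not with upper-quartile factors), Prkdc in 18 and Rnf8 in 5. Across the 39 members, Spearman's rho between coding length and the log2 fold change of IgG over input was 0.63, and across 11905 coding genes tested it was 0.36. Genes are not independent replicates, and these points share their libraries.

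With p-UPF1 over IgG, the feature most related among the members was the length of the 3′ UTR, the stretch after the stop codon, in which a long distance between the stop codon and the poly(A) tail is known to favour NMD. Spearman's rho over the 39 members was 0.53 with 3′ UTR length and 0.05 with coding length. Over 11905 coding genes tested, rho with 3′ UTR length was 0.36, so the relation was not peculiar to repair mRNAs. With the curated mRNA of the longest 3′ UTR in place of that of the longest coding sequence, rho over the members was 0.47. Transcripts annotated but not curated were left out, among them longer 3′ UTRs of Atr (1593 nt beside 20 nt) and Nbn (1954 nt beside 128 nt).

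The 15 members higher than IgG had a median 3′ UTR of 950 nt, and the 18 lower ones of 278 nt. Over all coding genes tested these medians were 1419 and 607 nt. Of 12 members with a 3′ UTR under 300 nt, 10 were called lower than IgG, where 67.1% of the coding genes tested with so short a 3′ UTR were lower. Among them were Msh6 (87 nt), Xrcc1 (100 nt), Polb (156 nt), Xrcc6 (166 nt), Apex1 (215 nt) and Xrcc5 (231 nt). The rest of the 10 were Atr, Mad2l2, Apex2 and Prkdc. Atr has 20 nt in its curated mRNA and 1593 nt in another annotated one. The calls of Mad2l2, Apex2 and Prkdc over IgG held in 9, 14 and 18 of 21 alternatives. Of the 12, those not called lower were Palb2 (256 nt), which was higher, and Nbn (128 nt), which did not pass. Above 1015 nt, the median 3′ UTR of all coding genes tested, lay 13 members, of which 6 were higher, 3 were lower and 4 did not pass, beside 3258, 1764 and 929 of the 5951 coding genes above it. The higher ones included Hus1 (3713 nt), Mre11a (3462 nt), Rnf168 (2116 nt) and Mdc1 (2040 nt). Rif1, with the longest 3′ UTR of all members (5565 nt), and Atm (2624 nt) were lower, and Trp53bp1 (3585 nt) and Exo1 (2831 nt) did not pass.

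**Figure D4:**
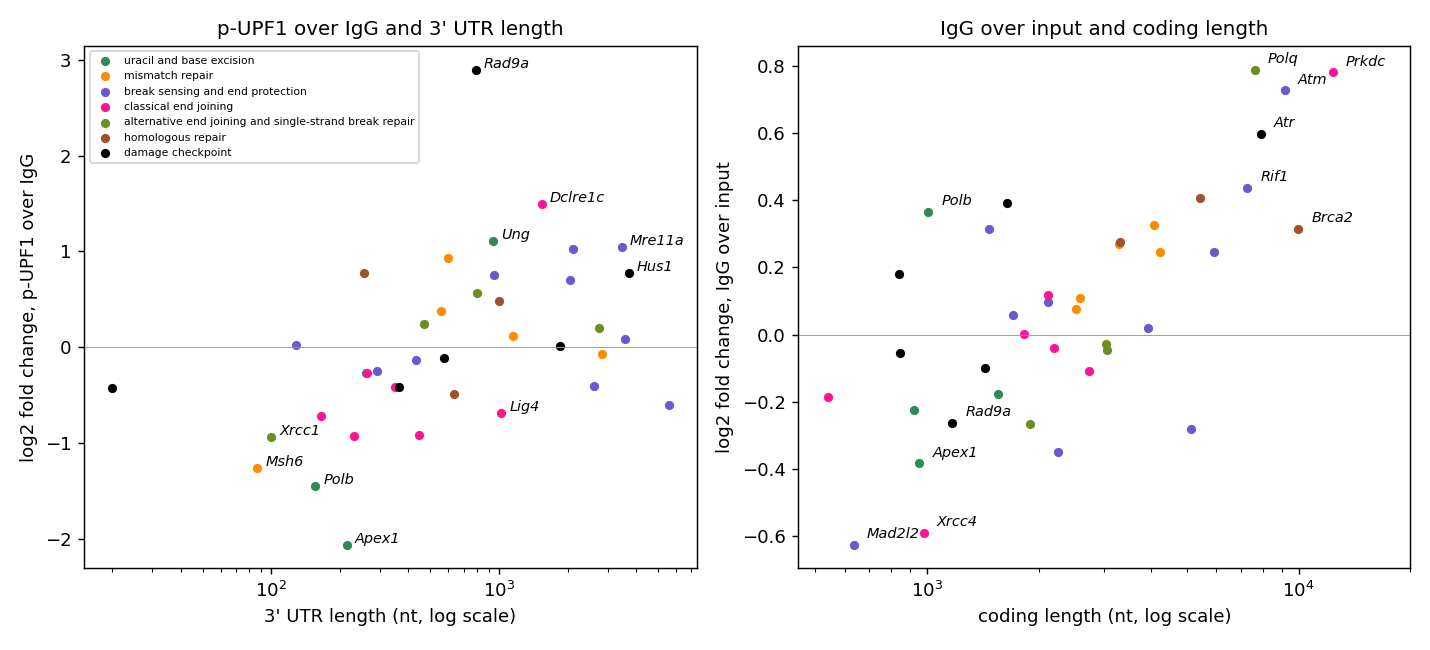
Left, log2 fold change of p-UPF1 over IgG against 3′ UTR length (nt, log scale). Right, log2 fold change of IgG over input against coding length (nt, log scale). Each point is 1 of the 39 repair mRNAs, coloured by role, and the values rise with length in both panels (rho 0.53 and 0.63), with Rad9a far above mRNAs of like 3′ UTR length on the left.

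Rad9a did not stand out by 3′ UTR length, which was 789 nt. Of the members nearest in length, Brca2 (636 nt) was at -0.49 over IgG, Polq (803 nt) at 0.57 and Ung (945 nt) at 1.11. Its annotated 5′ UTR of 87 nt holds 2 ATG triplets ahead of the start codon, a feature that 18 of the 39 members and 48.5% of the coding genes tested have at least once. An exon junction more than 50 nt after the stop codon is another known trigger of NMD. None of the annotated coding transcripts of the 39 genes has one, beside 0.764% of coding genes tested with at least 1 such transcript. At least 1 annotated noncoding transcript is listed for 17 of the 39 genes (43.6%), Rad9a among them, and for 22.9% of the coding genes tested. Counts per gene do not tell such transcripts, or unannotated isoforms, from the coding mRNA.

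Neighbouring genes bear on a few of these counts, since the kit kept strand but how strand was used in counting the RIP-seq reads is not given in the sources used here. Rad9a shares 224 exonic bases, 10.6% of its own, with Ppp1ca on the opposite strand. Ppp1ca went the other way, with mean CPM of 424 in input, 284 with IgG and 87.8 with p-UPF1 and a log2 fold change of -1.69 over IgG. Dclre1c shares 7.04% of its exonic bases with Suv39h2 on the opposite strand, which held 37.6 CPM with p-UPF1 and 20.7 CPM with IgG (0.86 on the log2 scale). Trp53bp1 shares 20.0% with Tubgcp4 (0.73 over IgG) and Ung 8.83% with Alkbh2 (0.36), both on opposite strands. Lig3 shares 456 exonic bases with Rffl on the opposite strand (1.06 over IgG). Rad1 shares 39.4% of its exonic bases with Ttc23l, which was not among the genes tested. The part of neighbours in the counts of these members was not tested.

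Other repair genes, taken as 8 lists of 72 genes with 70 tested, set the members in context. Of the 70, 30 were higher than IgG (40.4% of all genes), 27 were lower (42.2% of all genes) and 13 did not pass, with a median log2 fold change of 0.04. Of all 70, 3 were p-UPF1-bound, as were 6.25% of all genes. Xrcc2, a partner in homologous repair, and Ercc2, a helicase of nucleotide excision repair, were higher still than most members. Xrcc2 rose from mean CPM of 21.8 in input and 21.0 with IgG to 115 with p-UPF1, 2.44 over IgG (adjusted P = 2.74e-13) and 2.39 relative to input. Ercc2 rose from 31.9 and 31.0 to 141 CPM, 2.19 over IgG (adjusted P = 1.28e-15) and 2.14 relative to input.

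The counts by list are given without a test between lists, beside 40.4% of all genes higher and 42.2% lower than IgG. Of 5 translesion polymerase genes, 4 were higher than IgG, up to Poli at 1.05, and Polk was lower at -0.27. Of 10 other DNA glycosylases, 2 were higher, with Mbd4 at 1.27, and 6 were lower, with Smug1, a further uracil glycosylase, at -1.81 (adjusted P = 2.04e-11). Smug1 was already higher in IgG than in input, by 1.11. Of 9 end protection and ubiquitin partners tested, 4 were higher, with Abraxas1 at 1.35, and 5 were lower, with Babam2 at -1.67. Both were named as the extremes of their list, and Babam2 was already lower in IgG than in input (-0.87 on the log2 scale).

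In the Fanconi anaemia list of 12, 5 were higher than IgG, with Fancc at 1.39, and 4 were lower, with Fancf at -1.80. Of 11 nucleotide excision genes, 5 were higher and 5 lower, with Ercc1 at -1.02. Of 10 homologous repair partners, 4 were higher and 3 lower. Of 8 end processing genes, 3 were higher, with Aptx at 1.16, and 2 were lower, with Tdp1 at -1.18. Of 5 checkpoint partners tested, 3 were higher, with Atrip, the partner of ATR, at 1.01, and 1 was lower, Topbp1, at -1.04.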

How the data were processed

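The authors deposited raw read counts per gene, keyed by NCBI Gene number, with 1 column per library and no scaling. A directional library kit was used, per the labels, and the submitters' processing notes name cutadapt, HISAT2, featureCounts and mm10, without versions. Columns carry letters and were mapped to groups only. The counts hold no molecular identifiers, so reads copied from 1 molecule were counted apart, and P values rest on 3 libraries a group. Members were chosen from the list of 39 symbols, and 25275 of 27179 identifiers matched a RefSeq symbol. The members, role groups and lists were chosen with earlier results of these data known. All members could be named, and of each other list the genes with the highest and lowest log2 fold change over IgG at a mean of at least 1 CPM.

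Genes were kept with edgeR (4.0.16) filterByExpr (minimum count 10, total 15), which left 13129 genes with 99.95% of counts. TMM scaling and a quasi-likelihood fit over all 9 libraries (6 residual degrees of freedom, prior count 0.125) gave the contrasts, and SEs were derived from the test statistic. The fit was tested on simulated data. Fits with DESeq2 (1.42.0), limma-voom (3.58.1), other scalings, filters, priors and glmTreat, without each library and with the column letter as a block, are given as alternatives. In R 4.3.3 and Python, transcript features came from RefSeq on GRCm38.p6, using the curated mRNA with the longest coding sequence. CPM per kilobase divides by its length, and rho has no P value.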

Additional observations from a re-analysis of the deposited data

How the results depend on the processing

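Scaling moved the counts at the fold minimum most. Members higher than IgG by at least 1 on the log2 scale numbered 5, but 2 with upper-quartile factors or library size alone, 3 with an input library as TMM reference and 3 with glmTreat. Leaving out each library gave 3 to 5. Members lower by at least 1 numbered 3, but 6 with upper-quartile factors or library size alone and 5 with the input reference, since Xrcc1, Xrcc5 and, in the first pair of settings, Xrcc4 lie close to -1. These scalings moved the median of all genes over IgG by -0.14, -0.16 and -0.08. Members lower in IgG than in input numbered 8, but 5 when only the groups compared entered the fit. With library size alone, Nbn and Chek1 turned to -0.14 and -0.15 over IgG (adjusted P = 0.0398 and 0.0264 by edgeR's quasi-likelihood test).

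Of 2457 single-gene values recomputed over 21 alternatives, 2302 kept their side of the threshold, 95 lost it, 58 gained it and 2 reversed, and 56 of those kept changed sign without passing in either fit. The cause was not tested. Rad9a lay between 2.73 and 2.98 over IgG and Apex1 between -2.22 and -1.96. The counts of members called in either direction over IgG or over input stayed within 1.5 times. Column letters recur in the groups, but nothing in the labels ties a letter to a shared lysate. Deviations of same-letter libraries from their group means correlated at -0.01 to 0.05, and those of other letters at -0.06 to 0.02. For 6 of the 9 libraries the highest correlation in both other groups was with their own letter. The methods describe input and precipitates as parts of a lysate, so the letters may mark pairs. They were not taken as pairs in the main fit. A replicate block by letter, chosen after seeing the data, left 15 members higher and 17 lower than IgG, 22 and 15 over input and 15 and 8 for IgG over input. In it Nhej1 lost its call over IgG (-0.41, edgeR adjusted P = 0.0583). A count of reads per gene does not show which isoform was precipitated.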
